A study of Oryza sativa with 20 samples.

Results

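The alpha expansins described here are 10 rice genes chosen by name and MSU7 locus identifier (the locus numbering of the MSU release 7 rice annotation): EXPA1, EXPA2, EXPA4, EXPA5, EXPA7, EXPA8, EXPA10, EXPA16, EXPA17 and EXPA32. Of these 10 genes, 9 were measured, among 21237 gene rows in all, and EXPA17 (LOC_Os06g01920), known in rice for its part in root hair elongation, is not analysed here. All 9 passed the filter on low counts, EXPA32 through its Azucena libraries alone. The series profiled root RNA of 5 rice (Oryza sativa) cultivars, with 4 libraries each and 20 in all. Azucena, an upland japonica, and Bala, an upland indica, were the parents of a population used to map root traits. The other 3, Moddai Karuppan, Niyan Wee and Sarali, are treated here as Sri Lankan Indica II cultivars, a group that the title names without its members. The labels give root tissue and a genotype for every library and no treatment, so the cultivars differ by genotype as far as the labels go. The labels state neither plant age nor growth conditions, nor whether a library came from 1 plant or several. The p-values below therefore measure the spread between these libraries, which may be technical.

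Expansins are small secreted proteins that loosen plant cell walls without cutting their polymers, which lets a cell under turgor pressure extend. They act best at acid pH, so proton pumping into the wall favours their action. Alpha expansins act mainly on walls rich in xyloglucan, while the beta expansins of grasses are linked to the arabinoxylan-rich walls of that family. In roots, expansins are known from the elongation zone, from lateral roots and from root hairs.

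Levels are given as CPM, counts scaled to a common library total, with TMM factors that correct for differences in library composition. Levels are compared between cultivars for 1 gene at a time and never between genes, since no transcript lengths were at hand. Total counts per library ran between 23444550 and 31996643. Ribosomal RNA took 4.07% to 84.6% of them, with mean shares of 49.2% in Azucena and 73.3% in Bala, against Moddai Karuppan (42.0%), Niyan Wee (31.0%) and Sarali (52.9%). Other counts numbered 3813615 in the poorest library, Bala replicate 4, and 28063068 in the richest, Niyan Wee replicate 1, so low values are least certain in Bala. A label on each library, P1 for replicates 1 and 2 and P2 for replicates 3 and 4, is named a pool in the file header. All 5 measured root identity markers were present in the libraries. The leaf marker rbcS, the 1 of 5 listed leaf genes that was measured, lay between 0.128 and 3.61 CPM. Expansins form large families of similar genes, and how reads shared between near-identical copies were counted is not known here, so values of single members are uncertain to that extent.

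EXPA32 (LOC_Os08g44780, chromosome 8) had nearly all of its counts in Azucena. It had 9.06, 13.6, 7.04 and 14.2 CPM in the 4 Azucena libraries, resting on 206, 454, 234 and 409 counts. In Bala it had 0.454 CPM in replicate 1, from 7 counts, and 0 in the other libraries. Every Moddai Karuppan library was at 0, which allows up to 3 counts over the group, or 0.0214 CPM. In Niyan Wee 8 counts lay in replicate 2 (0.251 CPM), in Sarali 2 counts lay in replicate 3 (0.0832 CPM), and the other libraries of both cultivars were at 0. Each Azucena library was thus above every library of the other cultivars, and the few counts elsewhere came from at most 1 library per cultivar. The build IRGSP-1.0 in the submitters' processing notes is a japonica genome and Azucena is the japonica cultivar of these 5. If reads were aligned to it, a low level in the other cultivars and reads of differing alleles that were lost in alignment cannot be told apart.

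Azucena held 1303 counts of EXPA32 in all. By summed counts over summed library sizes, Azucena exceeded Bala 92.7-fold (95% interval of the count ratio 44.9 to 231) and Niyan Wee 238-fold (120 to 552). The ratio to Sarali, with its 2 counts, was 616 (170 to 5090). Moddai Karuppan had 0 counts, and the lower 95% limit of the ratio to it was 418. These intervals cover counting error only. In edgeR's quasi-likelihood test EXPA32 had an adjusted p of 1.54e-07 for Azucena against the Sri Lankan mean and 0.000549 against Bala. EXPA32 entered the test only through the cultivar in which it was high, so these p-values go with its levels and are no further support for them. Both calls held with each library left out and within each pool. DESeq2 alone missed the second of them (adjusted p = 0.0667). In whole roots, fewer cells that express a gene and less RNA per cell cannot be told apart.

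**Figure D1:**
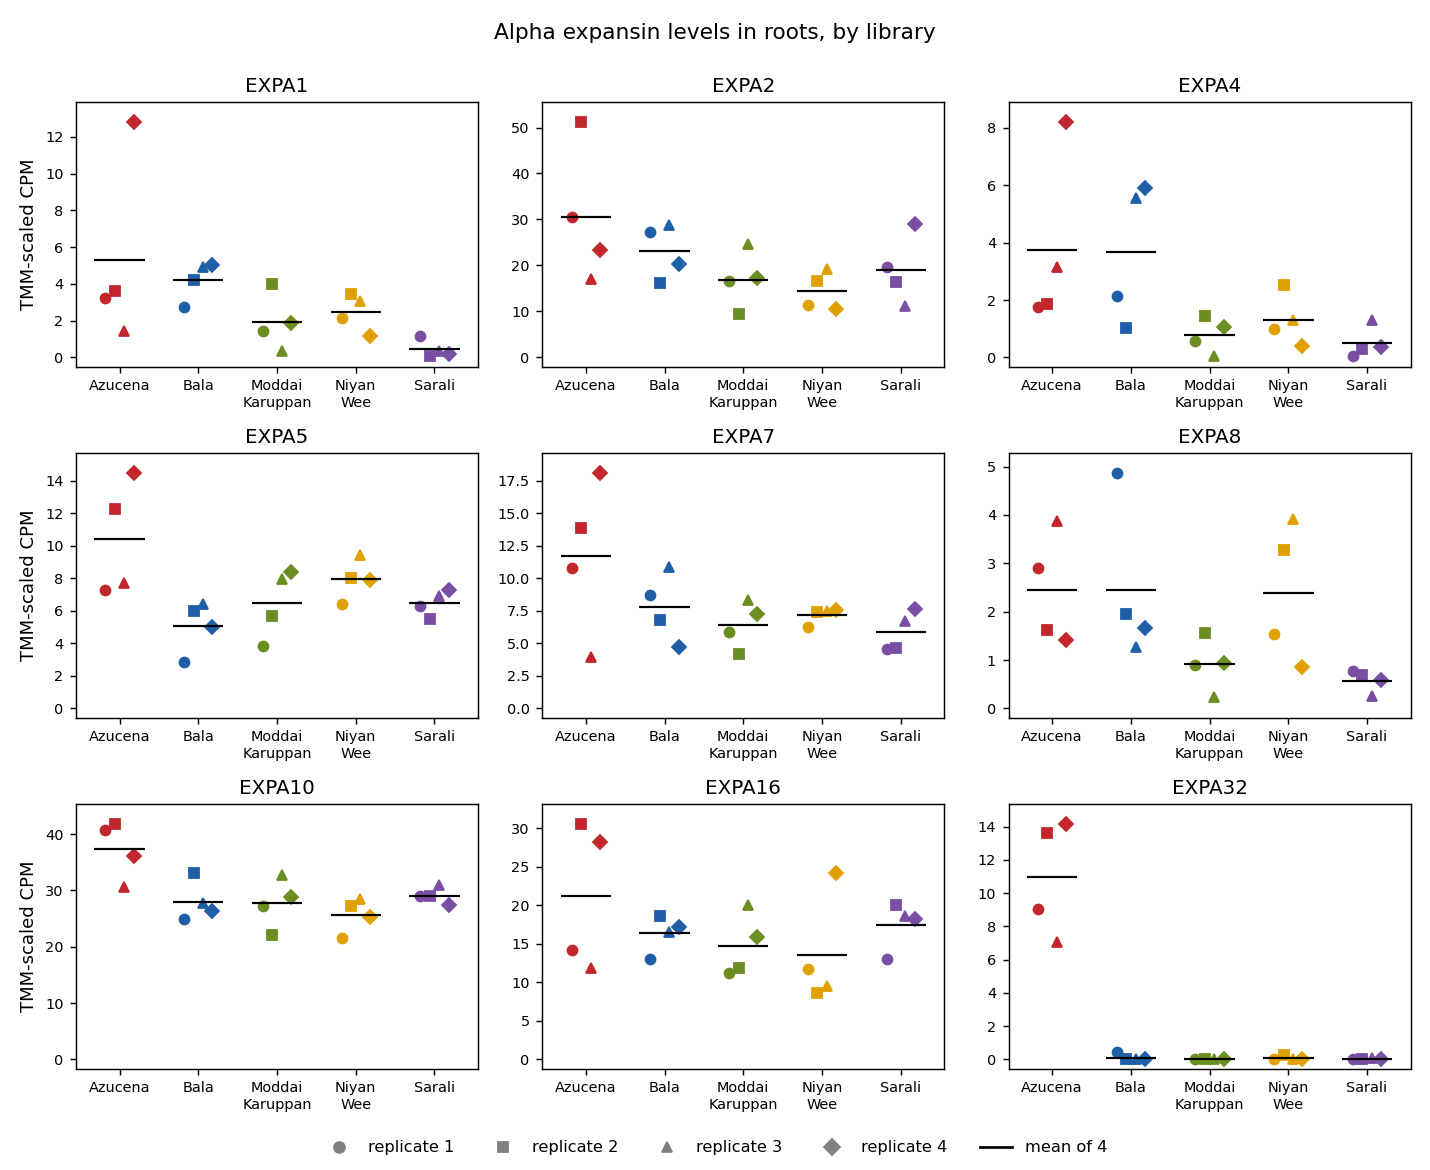
TMM-scaled CPM (y axis, linear from 0, its range set for each gene) of the 9 measured alpha expansins in each library of the 5 cultivars (x axis), with a bar at the mean of 4 and a marker shape for each replicate. EXPA32 lies between 7.04 and 14.2 CPM in Azucena and at or below 0.454 CPM elsewhere, whereas the cultivars overlap in most other panels.

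Among the 5 cultivars, 5 of the 9 measured genes differed in edgeR's F test at an adjusted p below 0.05, over all genes, against 28.4% of all genes tested. Without EXPA32 the count was 4 of 8. The 5 genes were EXPA32 (adjusted p = 1.5e-06), EXPA1 (0.0174), EXPA8 (0.0246), EXPA10 (0.0362) and EXPA4 (0.0363). EXPA5 (0.0548), EXPA2 (0.111), EXPA7 (0.139) and EXPA16 (0.456) did not pass. With the replicate number as a block, EXPA4 (0.0594) and EXPA10 (0.0555) no longer passed and EXPA5 did (0.0184). Between 3 and 8 genes passed when 1 library was left out, with 3 without Azucena replicate 4 or Sarali replicate 4 and 8 without Azucena replicate 3. EXPA32 was then called in every case. So was EXPA1, at an adjusted p of at most 0.0496.

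Against the mean of the 3 Sri Lankan cultivars, 6 of 9 were higher in Azucena and 0 lower, beside 22.5% of all genes that differed, 12.8% higher and 9.67% lower. Without EXPA32 the count was 5 of 8. The 6 genes were EXPA1, EXPA2, EXPA4, EXPA7, EXPA10 and EXPA32. All 9 fitted differences were positive, beside 51.2% of all genes tested, with a median of 0.87 (log2) against 0.01 over all genes. EXPA32 apart, each of these genes overlapped between the Azucena and the Sri Lankan libraries, where 5.51% of all genes had every Azucena library above.

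EXPA10 (LOC_Os04g49410, chromosome 4), which aluminium induces in rice roots and which is known to affect root cell elongation, had 40.7, 41.8, 30.6 and 36.1 CPM in Azucena. It had 25.0, 33.1, 27.8 and 26.3 CPM in Bala. The 12 Sri Lankan libraries ranged from 21.5 to 32.8 CPM with a median of 28.0. Replicates 1, 2 and 4 of Azucena lay above every Sri Lankan library, and replicate 3 lay within their range. Means were 37.3 ± 5.09 CPM in Azucena and 28.0 ± 3.56 in Bala, against 27.7 ± 4.48 for Moddai Karuppan, 25.6 ± 3.06 for Niyan Wee and 29.1 ± 1.47 for Sarali (SD, n = 4 each). Azucena was 1.36-fold above the Sri Lankan mean (log2 0.44 ± 0.11 SE, adjusted p = 0.00604 by edgeR), a small difference measured against a small spread. The call held with each library left out (adjusted p at most 0.0365). It stood at 0.71 (adjusted p = 0.0209) in pool P1 and at 0.19 (0.446) in pool P2.

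EXPA2 (LOC_Os01g60770, chromosome 1) had 30.6, 51.2, 17.1 and 23.3 CPM in Azucena, and Bala ranged from 16.2 to 28.7 CPM. The Sri Lankan libraries had 9.34 to 29.1 CPM with a median of 16.6. Azucena was 1.83-fold above the Sri Lankan mean (log2 0.87 ± 0.27 SE, edgeR adjusted p = 0.0244), with replicates 1 and 2 above every Sri Lankan library. The call ended without Azucena replicate 2 (0.50, adjusted p = 0.224) or replicate 1 (adjusted p = 0.0549), and in pool P2 the difference was 0.12 (0.867), against 1.50 (0.00573) in P1.

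EXPA7 (LOC_Os03g60720, chromosome 3) had 10.8, 13.9, 3.97 and 18.1 CPM in Azucena. Bala ranged from 4.75 to 10.9 CPM and the Sri Lankan libraries from 4.21 to 8.31 CPM, with a median of 7.02. Azucena replicate 3 was therefore the lowest library of all 20, and its other libraries lay above every Sri Lankan one. Azucena was 1.81-fold above the Sri Lankan mean (log2 0.85 ± 0.27 SE, edgeR adjusted p = 0.0251). The call ended without Azucena replicate 2 (adjusted p = 0.0877) or replicate 4 (0.56, adjusted p = 0.193), and pool P2 gave 0.54 (0.515) against 1.24 (0.00391) in P1.

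EXPA5 (LOC_Os02g51040, chromosome 2) set Azucena apart from Bala. It had 7.30, 12.2, 7.71 and 14.5 CPM in Azucena and 2.85, 5.98, 6.42 and 5.00 CPM in Bala. Every Azucena library lay above every Bala library, an order seen for 9.64% of all genes. The difference was 2.06-fold (log2 1.04 ± 0.28 SE, edgeR adjusted p = 0.0170). It stayed between 0.84 and 1.18 when 1 library was left out, but the call ended without Azucena replicate 2 or 4 or Bala replicate 1 (adjusted p at most 0.0753). It also ended once the fit held the share of ribosomal RNA, at a nearly equal difference of 1.05 (0.0571), and within each pool, at 1.15 (0.156) in P1 and 0.93 (0.134) in P2. The Sri Lankan libraries, with 3.82 to 9.46 CPM and a median of 7.10, overlapped with both. Against the Sri Lankan mean, Azucena stood at 0.59 (adjusted p = 0.058, or 0.0274 with the replicate block) and Bala at -0.45 (0.204).

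EXPA16 (LOC_Os06g41700, chromosome 6) passed none of these tests. It had 14.2, 30.6, 11.9 and 28.2 CPM in Azucena, 13.0 to 18.6 CPM in Bala and 8.68 to 24.2 CPM in the Sri Lankan libraries. Azucena replicates 2 and 4 lay above every library of the other cultivars, and replicates 1 and 3 lay among them. The difference of Azucena from the Sri Lankan mean was 0.49 (log2, 95% interval -0.06 to 1.03).

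EXPA1, EXPA4 and EXPA8 were measured at low counts and were lowest on average in Sarali. EXPA4 is known in rice for promoting growth of the stem and coleoptile, and altered EXPA8 expression is known to change rice root growth. EXPA1 (LOC_Os04g15840, chromosome 4) had 3.25, 3.63, 1.44 and 12.8 CPM in Azucena and 2.72, 4.21, 4.91 and 5.00 CPM in Bala. It had 1.45, 3.97, 0.356 and 1.88 CPM in Moddai Karuppan and 2.15, 3.46, 3.04 and 1.15 CPM in Niyan Wee. In Sarali it had 1.18, 0.0932, 0.374 and 0.183 CPM, below every Azucena and every Bala library. The share of all genes in such an order was counted for Azucena above Bala (9.64%) and not for these pairs. Azucena exceeded Sarali by 3.43 ± 0.77 (log2 ± SE, edgeR adjusted p = 0.00336) and Bala exceeded Sarali by 3.10 ± 0.77 (0.0118). Both of these calls held with each library left out.

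EXPA4 (LOC_Os05g39990, chromosome 5) had 1.76, 1.86, 3.16 and 8.20 CPM in Azucena and 2.14, 1.04, 5.55 and 5.90 CPM in Bala. In Moddai Karuppan it had 0.565, 1.44, 0.0444 and 1.06 CPM, in Niyan Wee 1.01, 2.51, 1.29 and 0.412 CPM and in Sarali 0.0513, 0.280, 1.29 and 0.366 CPM. Every Azucena library was above every Moddai Karuppan and Sarali library, while Niyan Wee replicate 2 reached into the Azucena range. The share of all genes in that order was not counted. The differences from Sarali were 2.94 ± 0.90 for Azucena (log2 ± SE, edgeR adjusted p = 0.0273) and 2.88 ± 0.91 for Bala (0.0460). Leaving out 1 library ended the Azucena call in 4 cases (adjusted p at most 0.111, without Azucena replicate 4) and the Bala call in 10 (at most 0.118, without Bala replicate 4).

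EXPA8 (LOC_Os01g14650, chromosome 1) had 2.90, 1.62, 3.88 and 1.42 CPM in Azucena and 4.86, 1.95, 1.27 and 1.67 CPM in Bala. In Moddai Karuppan it had 0.888, 1.56, 0.244 and 0.938 CPM, in Niyan Wee 1.53, 3.27, 3.91 and 0.866 CPM and in Sarali 0.770, 0.699, 0.250 and 0.586 CPM. Sarali lay below every Azucena, Bala and Niyan Wee library, an order whose share over all genes was not counted. Azucena exceeded Sarali by 2.07 ± 0.59 (log2 ± SE, edgeR adjusted p = 0.0185) and Bala by 2.08 ± 0.60 (0.0297). The Azucena call ended without Azucena replicate 3 (0.0571) or Sarali replicate 3 (0.0543), and the Bala call without Bala replicate 1 (0.142) or Sarali replicate 2, 3 or 4 (at most 0.0814).

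EXPA1 and EXPA4 were also higher in Azucena than in the Sri Lankan mean, by 2.01 ± 0.52 (adjusted p = 0.00789) and 2.25 ± 0.62 (0.0116) in edgeR's test. Both differences were smaller without Azucena replicate 4. EXPA1 then stood at 1.08 (adjusted p = 0.187) and EXPA4 at 1.52 (0.135). In pool P1 EXPA1 gave 1.04 (0.335) and EXPA4 1.54 (0.150), and in pool P2, which holds that library, they gave 3.02 (0.0347) and 2.94 (0.0426). EXPA8 had 1.18 (0.0562).

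In Bala, 2 of 9 genes were higher than the Sri Lankan mean and 0 lower, beside 18.0% of all genes that differed, 10.2% higher and 7.81% lower. They were EXPA1 (log2 1.67 ± 0.54 SE, adjusted p = 0.0379 by edgeR, or 0.0501 with the replicate block) and EXPA4 (2.19 ± 0.64, 0.0222). This comparison uses the same Sri Lankan libraries as that of Azucena. EXPA8 stood at 1.19 (0.0728), EXPA2 at 0.47 (0.271), EXPA7 at 0.27 (0.561), EXPA16 at 0.11 (0.825) and EXPA10 at 0.03 (0.888). EXPA32, with its few counts, had an adjusted p of 0.163. Both Bala calls ended under several alternatives. With the share of ribosomal RNA in the fit, EXPA1 had 1.87 (0.263) and EXPA4 0.70 (0.776), and without Bala replicates 3 and 4, the libraries poorest in other counts, they had 1.40 (0.316) and 1.01 (0.603). Leaving out 1 library ended the EXPA4 call without Bala replicate 3 (0.0958) or 4 (0.106), and the EXPA1 call in 9 cases (at most 0.108, without Bala replicate 4). Pool P1 gave 1.04 (0.459) for EXPA1 and 1.33 (0.337) for EXPA4, and pool P2 gave 2.51 (0.0763) and 2.97 (0.0452).

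Between Azucena and Bala themselves, 2 of 9 genes differed, EXPA5 and EXPA32, both higher in Azucena (1 of 8 without EXPA32), beside 13.7% of all genes that differed, 7.76% higher and 5.92% lower. EXPA10 had 0.41 (adjusted p = 0.0573 by edgeR), EXPA7 0.58 (0.304), EXPA2 0.40 (0.508), EXPA16 0.38 (0.509), EXPA1 0.33 (0.811), EXPA4 0.06 (0.975) and EXPA8 -0.00247 (0.999). The intervals of the low genes were wide, from -1.13 to 1.80 for EXPA1, from -1.67 to 1.80 for EXPA4 and from -1.19 to 1.18 for EXPA8, so differences of these sizes in either direction could not be told from 0.

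**Figure D2:**
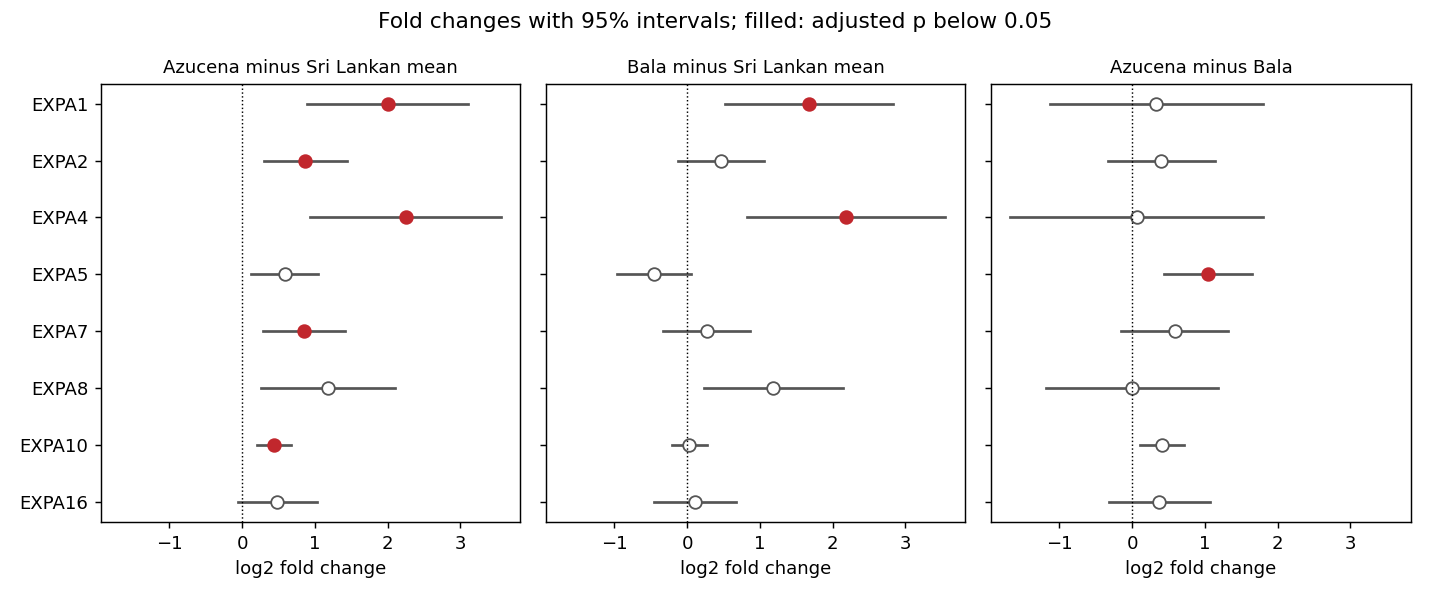
Fitted log2 fold changes (x axis, the same range in each panel) of 8 alpha expansins (y axis) with 95% intervals, for Azucena minus the Sri Lankan mean, Bala minus the Sri Lankan mean and Azucena minus Bala. Filled points have an adjusted p below 0.05, and EXPA32 is left out because a fold change fitted to near-zero groups depends on the prior count. The points for EXPA1 and EXPA4 are filled against the Sri Lankan mean in both panels, and EXPA5 is the filled point between Azucena and Bala.

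Over the 10 pairs of cultivars, 14 of 90 tests passed, against 11.0% of the same tests over all genes, and 13 when p was adjusted over genes and pairs together (10.6%). Without EXPA32 these counts were 10 and 9 of 80. Azucena was the higher cultivar in 11 of the 14 tests and Bala, against Sarali, in the other 3. Azucena differed from Moddai Karuppan in 2 of the 9 genes (20.0% of all genes), from Niyan Wee in 3 (14.0%) and from Sarali in 4 (18.0%). Bala differed from Sarali in 3 (11.5%), and from Moddai Karuppan (15.2%) and Niyan Wee (11.1%) in 0. Adjusted within a pair, the Sri Lankan pairs gave 0 calls each. The shares of all genes were 2.37% between Moddai Karuppan and Niyan Wee, 1.75% between Moddai Karuppan and Sarali and 2.88% between Niyan Wee and Sarali. Adjusted over genes and pairs together, edgeR's test of EXPA8 between Niyan Wee and Sarali passed (0.0304). Those of EXPA10 between Azucena and Moddai Karuppan (0.0557) and of EXPA2 between Azucena and Niyan Wee (0.0532) then did not. The calls that follow are those within a pair. Beside the EXPA32 calls, Azucena differed from Moddai Karuppan in EXPA10 (0.43, adjusted p = 0.0352), from Niyan Wee in EXPA10 (0.54, 0.0109) and EXPA2 (1.08, 0.0436, or 0.0713 with the replicate block), and from Sarali in EXPA1, EXPA4 and EXPA8. The EXPA10 call against Niyan Wee held with each library left out, while that against Moddai Karuppan ended in 6 cases (adjusted p at most 0.118) and the EXPA2 call in 10 (at most 0.210). In the order of the 5 means of each gene, EXPA32 in Azucena and Bala was the 1 pair of neighbours that differed beyond the spread.

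Among the 3 Sri Lankan cultivars, 0 of 9 genes passed edgeR's F test, beside 4.02% of all genes. EXPA1 and EXPA8 had an unadjusted p below 0.05, 2 genes in all, and DESeq2 called 1 of them, EXPA8 (adjusted p = 0.0215). Without Niyan Wee replicate 4, edgeR called EXPA8 as well (0.0454).

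The spread between libraries of 1 cultivar differed widely between genes. Averaged over cultivars, the coefficient of variation was 11.9% for EXPA10, against a median of 18.4% over the 13077 genes of at least 5 CPM. It was 25.1% for EXPA5, 29.4% for EXPA7, 31.6% for EXPA16 and 35.9% for EXPA2. It was 54.7% for EXPA8, 70.2% for EXPA1 and 80.6% for EXPA4, which average below 5 CPM, outside the set of that median. For EXPA32 it was 31.7% in Azucena, and no average is given because the other cultivars were at or near 0. EXPA10 had the smallest of these averages. Summed over the 9 genes, Azucena had 86.8 to 170 CPM, with replicate 3 the lowest, and Bala 86.1 to 102 CPM, against 60.1 to 94.5 for Moddai Karuppan, 62.0 to 82.5 for Niyan Wee and 74.6 to 90.8 for Sarali. EXPA32 adds 7.04 CPM to the sum of Azucena replicate 3 and 0 to that of Niyan Wee replicate 3, the highest Niyan Wee sum.

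Over the 20 libraries, which share their scaling and depth between genes, the deviations of log2 CPM from the cultivar means correlated positively in 23 of 36 gene pairs, with a median r of 0.12, which was not compared with other genes. The highest values were those of EXPA2 with EXPA7 (0.557), EXPA5 with EXPA16 (0.552), EXPA7 with EXPA16 (0.523) and EXPA7 with EXPA10 (0.507). The lowest was that of EXPA8 with EXPA16 (-0.779). Among the other measured expansins, EXPA2 went most closely with EXPB3 (0.817), and EXPA5 with EXPB16 (0.717). EXPA2 ran opposite to EXPA12 (-0.752). These partners were named after their values were seen, and the correlations are descriptions.

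**Figure D3:**
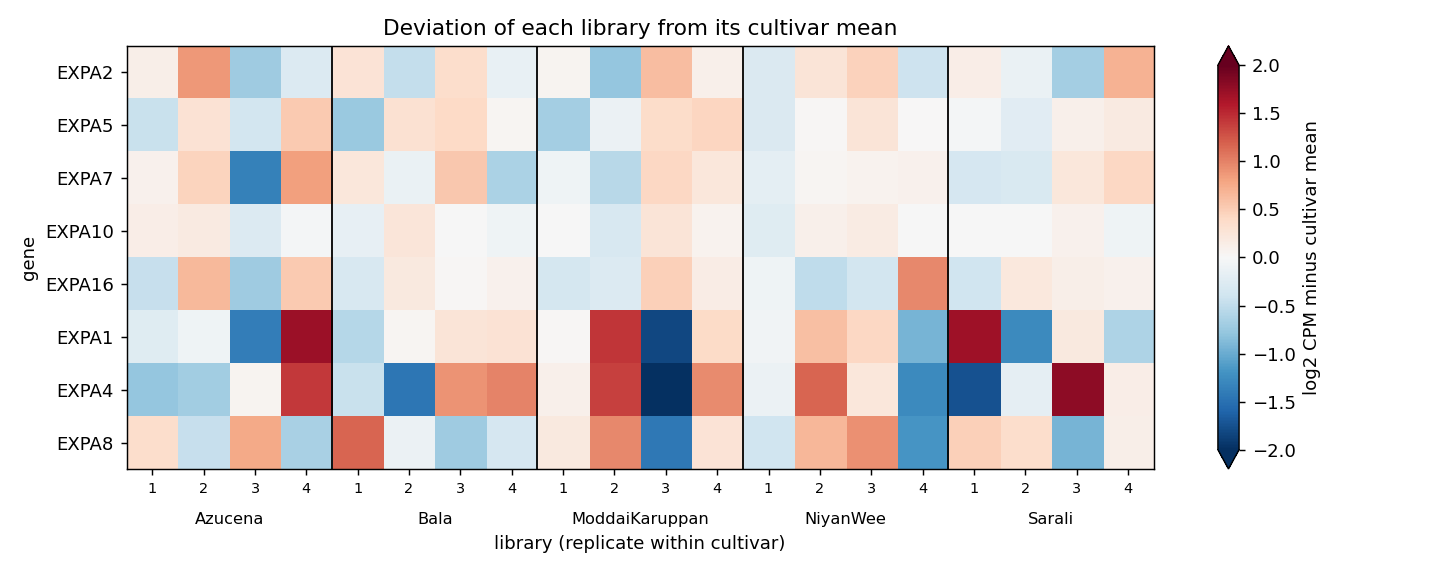
Deviation of each library (x axis, replicates 1 to 4 of each cultivar) from its cultivar mean, in log2 CPM (color scale, cut at -2 and 2), for 8 alpha expansins (y axis) with EXPA32 left out. EXPA2, EXPA5, EXPA7, EXPA10 and EXPA16 were all below their mean in Azucena replicate 3, while EXPA1, EXPA4 and EXPA8 deviated most.

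Across all 20 libraries and 1828 named genes of at least 5 CPM, the levels of EXPA16 were most like those of BGLU1, a beta-glucosidase (r = 0.891), BRL2, a relative of the brassinosteroid receptor (0.816), and the plasma membrane aquaporin OsPIP2;6 (0.802). Those of EXPA5 were most like the levels of the kinesins KIN10C (0.821) and KIN14C (0.789) and of the B-type cyclin CYCB1-5 (0.784). These genes too were named after their values were seen, and no p is attached to them. Neither EXPA16 nor EXPA5 was among the 3 members for which such genes were to be named. The most similar genes of EXPA2, EXPA7 and EXPA10 over all 20 libraries are not listed here.

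The other measured expansins give the setting for these genes. Of 7 other alpha expansins, 2 were higher in Azucena than in the Sri Lankan mean (12.8% of all genes) and 4 in Bala (10.2%). Those lower numbered 0 in either, beside 9.67% of all genes in Azucena and 7.81% in Bala. EXPA11 (log2 1.46, edgeR adjusted p = 0.00326) and EXPA12 (1.67, 0.00943) were the genes called in Azucena. EXPA28 (2.24, 0.00579) and EXPA33 (2.30, 0.0148) were among the 4 called in Bala. Median differences over the 7 were 1.34 in Azucena and 1.77 in Bala. None of the 7 passed edgeR's test between Azucena and Bala, beside 13.7% of all genes. None had an unadjusted p below 0.05 in it. The Azucena count was 1 without Azucena replicate 3 and 4 with the replicate block, and the Bala count was 1 without Bala replicate 1 and 7 without Sarali replicate 3.

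Of 11 measured beta expansins, 6 were higher in Azucena (12.8% of all genes) and 4 in Bala (10.2%), with medians of 1.02 and 0.83. Those lower numbered 0 in either, beside 9.67% of all genes in Azucena and 7.81% in Bala. All 4 called in Bala were called in Azucena too, among them EXPB4 (1.02 in Azucena and 1.40 in Bala) and EXPB11 (1.51 and 1.61). EXPB2 (1.25, edgeR adjusted p = 0.00323) and EXPB17 (1.34, 0.00316) were called in Azucena and not in Bala. The Bala count was 2 without Bala replicate 4. Of 4 expansin-like genes, which resemble expansins in sequence and have no known wall-loosening activity, EXLA3 passed in Azucena (0.55, 0.0273) and none in Bala. Its call ended without Azucena replicate 1 or 4, and the median over these 4 was -0.11 in Azucena.

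**Figure D4:**
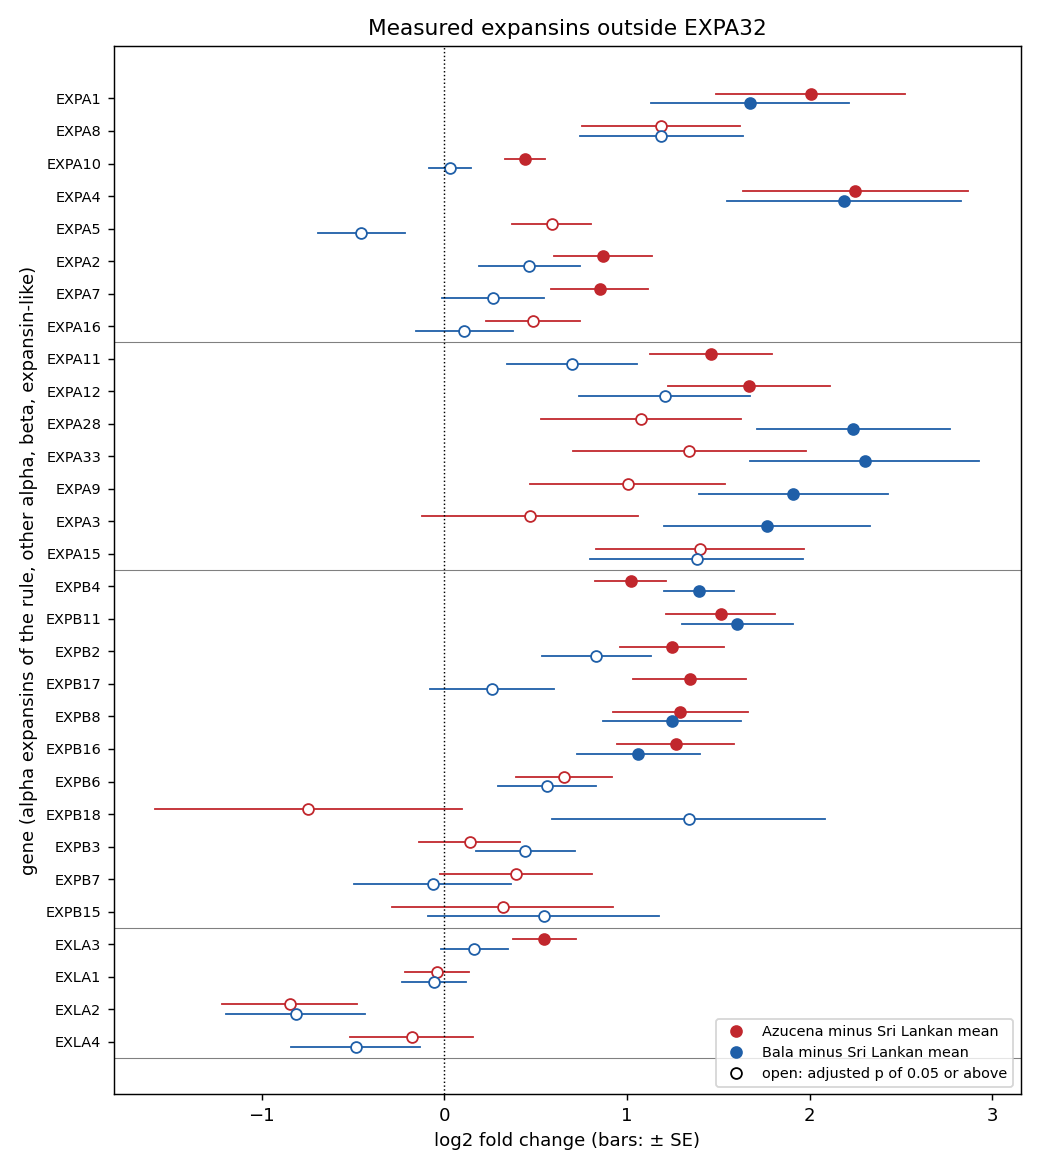
Fitted log2 fold changes (x axis, bars ± SE) of the measured expansins other than EXPA32 (y axis) for Azucena and for Bala, each minus the same Sri Lankan mean. Lines separate the alpha expansins described here, other alpha expansins, beta expansins and expansin-like genes, and filled points have an adjusted p below 0.05, all of them to the right of 0.

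Genes that build the wall are set beside the same comparisons, in which 22.5% of all genes differed in Azucena and 18.0% in Bala. Of 5 primary wall cellulose synthase genes, 0 differed in Azucena and CESA5 was lower in Bala (-0.66, edgeR adjusted p = 0.0142), a call that ended without Bala replicate 3 or 4. Without Azucena replicate 2, 1 of the 5 was called in Azucena. Of 3 secondary wall cellulose synthase genes 0 differed in either, and neither did XTH8, the 1 xyloglucan endotransglucosylase measured, nor a7, the 1 plasma membrane proton pump gene that carried a name. CSLD1, a cellulose synthase-like gene known to be needed for rice root hair growth, was higher in Azucena (2.61, 0.00138) and had 1.39 (0.127) in Bala. Its libraries ranged from 0 to 2.37 CPM, so these differences rest on low values.

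Some markers of cell types differed between the cultivars as well. Of 15 genes marking dividing cells, as found in the root tip, 5 were higher in Azucena than in the Sri Lankan mean by edgeR (12.8% of all genes). In Bala 0 were higher (10.2%), and 0 of the 15 differed between Azucena and Bala themselves (13.7%). Without Azucena replicate 3 the Azucena count was 1, and without Azucena replicate 2 or 4 it was 3. The Bala count was 1 with the replicate block and in DESeq2, and at most 1 with any library left out. Their summed level ran from 246 to 338 CPM in Azucena and from 202 to 240 in Bala, against 130 to 200 for Moddai Karuppan, 214 to 341 for Niyan Wee and 160 to 269 for Sarali. The Niyan Wee range of this sum overlapped that of Azucena. The 5 root identity markers were the silicon transporters Lsi1 and Lsi2, SHR1, SCR1 and CASP1. Of these, 1 was higher in Azucena (12.8% of all genes) and 4 in Bala (10.2%), and 0 differed between Azucena and Bala (13.7%). Their sums ran from 147 to 783 CPM in Azucena and from 369 to 1219 in Bala, against 115 to 246 for Moddai Karuppan, 174 to 567 for Niyan Wee and 145 to 451 for Sarali, and the lowest value of any of these 5 in a library was 2.00 CPM. The highest root marker sum in Azucena was that of replicate 3, which had the lowest alpha expansin sum of that cultivar. The part of these shifts in the expansin results was not tested.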

How the data were processed

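Root RNA of 5 cultivars was sequenced in 4 libraries each. Per the labels' protocols, RNA was extracted with TriReagent and libraries were made with a stranded total RNA kit that removes ribosomal RNA, although another label names polyadenylated RNA. HISAT2, edgeR 3.36.0 and the build IRGSP-1.0 appear in the submitters' processing notes without a role. No label names the counting tool or the annotation.

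The authors deposited expected counts per gene and library, of which 7.58% are not whole, so they were rounded to whole numbers where the design had assumed raw counts. Every gene row reached 1 CPM in at least 3 libraries, and 2 rows that name no gene were left out. The members, gene lists and tests were chosen with earlier results of these data known. Names came from a reference table (assembly ASM3414082v1, 20839 rows matched), which is not the build named above, so no coordinates are given. Listed genes that this table does not annotate were dropped.

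filterByExpr (minimum count 10, by cultivar) removed 12 genes and left 21225. edgeR 4.0.16 in R 4.3.3 (TMM, estimateDisp, glmQLFit, glmQLFTest) fitted 1 mean per cultivar over all 20 libraries, with 15 residual degrees of freedom. P-values were adjusted by the Benjamini-Hochberg method across every gene tested (threshold 0.05). Log2 CPM used a prior count of 2. Of each other list, at most 4 genes with the smallest p among the 5 cultivars were eligible for naming, beside all members. The rule for genes most like a member covered only the 3 members with the smallest p, which lie below its 5 CPM minimum. The scripts were tested on simulated data.

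The labels mark replicate numbers as a batch, so a block on them is a paired alternative. Over all genes, same-numbered libraries deviated from their cultivar means with a mean r of 0.236 for number 1, -0.0839 for 2, 0.0202 for 3 and -0.00252 for 4. Other alternatives were RLE scaling, no filter, DESeq2 1.42.0, each pool alone, ribosomal RNA left out or as a covariate, fewer libraries and fits of the compared cultivars alone.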

Additional observations from a re-analysis of the deposited data

Results flagged for a closer look

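In 4 of 45 groups of 4 libraries, 1 library stood apart from the others by Dixon's criterion for gaps, where chance gives about 1 group in 20. Of these, 3 were EXPA32 in cultivars with 3 libraries at 0, where any library above 0 meets the criterion by construction. EXPA7 had 6.26 CPM in Niyan Wee replicate 1, and the nearest of the other Niyan Wee libraries had 7.39 CPM. EXPA32 had 0.454 CPM in Bala replicate 1, 0.251 CPM in Niyan Wee replicate 2 and 0.0832 CPM in Sarali replicate 3, with the other libraries of each of these cultivars at 0.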

How the results depend on the processing

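RLE scaling, no filter on low counts and leaving out ribosomal RNA rows kept the call and direction of all 56 gene values given for each. The counts of called genes were 5 among the 5 cultivars, 0 among the 3 Sri Lankan ones, 6 for Azucena and 2 for Bala against the Sri Lankan mean, 2 for Azucena against Bala and 14 over the pairs. For the alternatives that follow, counts not named equalled these. Pool P1 gave 3 among the 5 cultivars, 4 for Azucena and 0 for Bala against the Sri Lankan mean. It gave 1 for Azucena against Bala and 11 over the pairs. Pool P2 gave 1 among the 5 cultivars, 3 for Azucena and 1 for Bala against the Sri Lankan mean, 1 for Azucena against Bala and 4 over the pairs, with fewer libraries in each pool. The ribosomal RNA covariate gave 4 among the 5 cultivars, 0 for Bala against the Sri Lankan mean, 1 for Azucena against Bala and 11 over the pairs. Without Bala replicates 3 and 4 the counts were 3 among the 5 cultivars, 0 for Bala against the Sri Lankan mean and 11 over the pairs. Without Sarali replicate 3 and Niyan Wee replicates 2 and 3, 3 genes were called among the 5 cultivars. The counts were then 7 for Azucena and 3 for Bala against the Sri Lankan mean and 13 over the pairs. Fits of the compared cultivars alone gave 1 for Azucena against Bala (EXPA5 ended at an adjusted p of 0.0786) and 9 over the pairs. DESeq2 gave 1 among the Sri Lankan cultivars. The paired fit with the replicate block gave 4 among the 5 cultivars, and 7 for Azucena and 1 for Bala against the Sri Lankan mean. Among the 56 gene values, no call changed other than those given with their blocked p above. Pair tests not called in the main fit are outside these values, save Azucena against Bala. The count over the pairs stayed at 14 although EXPA2 against Niyan Wee ended, so a pair test outside these values was gained. The causes of these changes were not tested, and several of these fits also held fewer libraries. With 1 library left out, the counts ranged from 3 to 8 among the 5 cultivars, from 0 to 1 among the Sri Lankan cultivars, from 3 to 8 for Azucena and from 0 to 3 for Bala against the Sri Lankan mean, from 1 to 4 for Azucena against Bala and from 10 to 20 over the pairs.

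Signs turned only for differences that were not called. For Bala against the Sri Lankan mean, EXPA10 was -0.096 in P2 and -0.059 to 0.087 with 1 to 3 libraries left out. EXPA16 was -0.074 in P2, -0.19 with the ribosomal RNA covariate and -0.015 to 0.25 with 1 to 3 libraries left out, lowest without Sarali replicate 3 and Niyan Wee replicates 2 and 3. For Azucena against Bala, P2 gave -0.30 for EXPA2, -0.025 for EXPA4 and 0.85 for EXPA8, and the replicate block gave 0.081 for EXPA8. With 1 library left out, the same difference ranged from -0.60 to 0.65 for EXPA1, from -0.67 to 0.37 for EXPA4 and from -0.32 to 0.58 for EXPA8. Over all genes, 6032 were called among the 5 cultivars, against 2498 in P1 and 2437 in P2. Among the Sri Lankan cultivars 854 were called, against 1552 by DESeq2, 522 in P1, 299 in P2 and 500 without the 3 libraries of Niyan Wee and Sarali named above. Against the Sri Lankan mean, Azucena had 4780 (2575 in P1 and 2287 in P2) and Bala 3816 (1126 in P1, 2472 in P2, 1191 with the ribosomal RNA covariate, 1484 without Bala replicates 3 and 4 and 2332 without replicate 4 alone). Azucena against Bala gave 2904 (1349 in P1, 1100 in P2, 1866 without Bala replicates 3 and 4 and 1921 from those cultivars alone). Depth limits values near 0, since 3 counts over the 4 libraries of a cultivar equal 0.0509 CPM in Bala and 0.0174 CPM in Niyan Wee.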
